A study of Mus musculus with 6 samples.

Results

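The cardiac myosin heavy chains are the motor proteins of the thick filament in heart muscle, and 3 genes encode them: Myh6, Myh7 and Myh7b. They were taken by their symbols from the authors' deposited sheet of 12072 expressed genes, and all 3 were measured in each of the 6 libraries. The libraries came from the left ventricle of chow-fed mice aged 30 weeks, and the genotypes were CS-Mpc2-/- and fl/fl. The name CS-Mpc2-/- stands for a heart-specific deletion of Mpc2, a subunit of the carrier that takes pyruvate into mitochondria. The fl/fl mice carry the floxed allele. The Cre driver is not given in the sources used here. Each genotype had 6 mice, and each library held the RNA of 2 hearts, which gave 3 libraries of separate animals per genotype. Total RNA was depleted of ribosomal RNA and sequenced on an Ion Torrent Proton.

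Myh6 encodes alpha-myosin heavy chain, the fast ATPase that dominates the adult mouse ventricle. Myh7 encodes beta-myosin heavy chain, the slower and more economical motor of the fetal ventricle and of slow skeletal fibres. In rodents, thyroid hormone raises Myh6 and lowers Myh7, and a shift towards Myh7 is a textbook mark of pathological hypertrophy. Myh7b is an ancient relative of both. Each of the 3 genes carries a microRNA in an intron (miR-208a in Myh6, miR-208b in Myh7, miR-499 in Myh7b), and the antisense RNA Mhrt starts between Myh6 and Myh7.

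On mm10, with the GENCODE M21 annotation, Myh6 (ENSMUSG00000040752.16) lies on the minus strand of chr14 at 54941921 to 54966927 and has 39 exons in its longest coding transcript of 6113 nt. Myh7 (ENSMUSG00000053093.16) lies beside it on the same strand at 54970684 to 54994626, 3756 nt away, with 41 exons and 6230 nt. Myh7b (ENSMUSG00000074652.3) lies on the plus strand of chr2 at 155611212 to 155634307, with 42 exons and 6163 nt. Mir208a sits in intron 29 of Myh6, Mir208b in intron 31 of Myh7 and Mir499 in intron 19 of Myh7b. The mature microRNAs below, from RefSeq on GRCm38.p6, show what ties the 3 genes together, with the seed (bases 2 to 8 from the 5′ end) in capitals.
mmu-miR-208a-3p (chr14:54949072-54949093, minus strand): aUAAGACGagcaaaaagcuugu
mmu-miR-208b-3p (chr14:54975710-54975731, minus strand): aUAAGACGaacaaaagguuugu
mmu-miR-499-5p (chr2:155622893-155622913, plus strand): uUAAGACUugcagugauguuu
The microRNAs of Myh6 and Myh7 shared 1 seed and differed at 3 of 22 bases. The seed of the Myh7b microRNA differed from theirs in its last base.

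**Figure D1:**
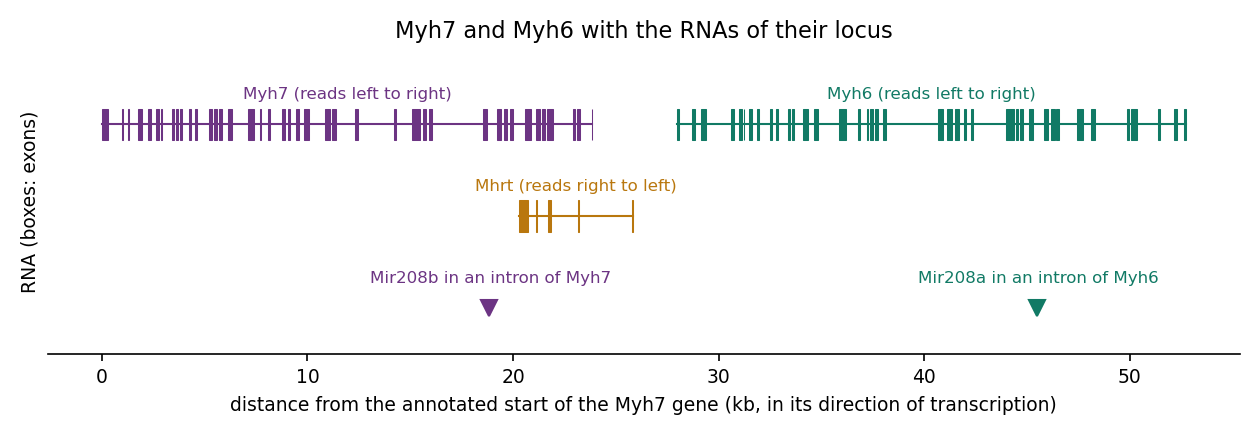
Annotated exons (boxes) and introns (lines) of Myh7, Mhrt and Myh6, to scale, against the distance in kb from the start of Myh7 in its direction of transcription, with triangles for the intronic microRNA genes. Myh7 lies ahead of Myh6 on the same strand, and Mhrt is read in the opposite direction from the interval between them into the 3′ part of Myh7.

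The coding sequences of Myh6 and Myh7 were 91.8% identical over 5800 aligned nt, and the longest identical run between their transcripts was 245 nt. Of all 50-nt windows in the Myh6 transcript, 22.6% also occurred in that of Myh7, and 22.2% of those in the Myh7 transcript occurred in that of Myh6. How the authors assigned reads that match both genes is not given in the sources used here, so the balance of the pair is uncertain to that extent. The 120-nt stretch in which the genes differed most shows how the pair can be told apart. Capitals mark the 39 bases that differ. The stretch is codons 1074 to 1113 of Myh6 (exons 24 and 25, between chr14 54952249 and 54952605) and codons 1072 to 1111 of Myh7 (exons 26 and 27, between chr14 54980324 and 54982197), from the GENCODE M21 transcripts, minus strand of mm10, with the intron left out.
Myh6: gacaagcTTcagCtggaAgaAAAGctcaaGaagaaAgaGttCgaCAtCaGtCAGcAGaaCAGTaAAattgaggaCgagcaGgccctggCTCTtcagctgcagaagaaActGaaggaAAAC
Myh7: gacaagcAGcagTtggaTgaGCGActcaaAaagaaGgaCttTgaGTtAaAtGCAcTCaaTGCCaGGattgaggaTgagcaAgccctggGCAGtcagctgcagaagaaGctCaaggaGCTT
Myh7b stood further apart, with 72.8% coding identity to Myh6 and 73.1% to Myh7. Its transcript shared 0% of its 50-nt windows with either, and its longest identical run with them was 33 nt.

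Values are the authors' coverage signal per 1000000 of the library total (ppm). Their precision differed between libraries: in units of 1000000 of a library's smallest step, the total spanned 278 to 319 in CS-Mpc2-/- and 92.9 to 389 in fl/fl. Mpc2 had 14.9, 18.2 and 46.3 ppm in CS-Mpc2-/- replicates 1 to 3, against 45.2, 38.9 and 27.7 ppm in fl/fl replicates 1 to 3. The library labelled CS-Mpc2-/- replicate 3 therefore went against its label by this gene, with a level above every fl/fl library, and the name CS-Mpc2-/- replicate 3 stands for the library so labelled. Library fl/fl replicate 3 stood apart from the other fl/fl libraries: Nppa, the atrial natriuretic peptide gene, was at 7656 ppm in it and at 197 and 175 ppm in the other 2, and results are given with and without it. That library was picked out by these same values, for its likeness to CS-Mpc2-/-. Leaving it out narrows the fl/fl spread and widens such differences. The p-values and counts without it are therefore descriptive and no independent support. By limma on log2(ppm + 1), 0 genes passed an adjusted p of 0.05 with all 6 libraries (0%, with 0.220 as the lowest adjusted p). Limma's unadjusted p was under 0.05 for 1631 genes (13.5%).

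Myh6 was lower in CS-Mpc2-/- than in fl/fl replicates 1 and 2 and about level with fl/fl replicate 3. It was at 37522, 40319 and 33936 ppm in CS-Mpc2-/-, against 65413, 66012 and 30974 ppm in fl/fl. The CS-Mpc2-/- libraries lay close together, while the fl/fl libraries were both the highest and the lowest, so the groups overlapped. The means were 37259 ± 3200 ppm in CS-Mpc2-/- and 54133 ± 20059 ppm in fl/fl (SD, n = 3 each). The log2 difference of -0.46 ± 0.39 (SE) did not pass (limma, Benjamini-Hochberg adjusted p = 0.618; exact permutation p = 0.4, two-sided, where 0.1 is the smallest that 3 against 3 allows). Without fl/fl replicate 3 it was -0.82 ± 0.29, which also missed the threshold (limma adjusted p = 0.0877), and with replicate 3 of both groups left out it was -0.76 (limma adjusted p = 0.0569). In bulk tissue, fewer cardiomyocytes and less of an RNA per cardiomyocyte cannot be told apart.

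Myh7 did not differ beyond the spread between libraries. It was at 11850, 19226 and 10780 ppm in CS-Mpc2-/-, against 14425, 13732 and 17899 ppm in fl/fl. CS-Mpc2-/- replicate 2 was the highest of all 6 and CS-Mpc2-/- replicate 3 the lowest. The means were 13952 ± 4598 ppm in CS-Mpc2-/- and 15352 ± 2233 ppm in fl/fl (SD, n = 3 each), with a log2 difference of -0.18 ± 0.30 (SE, limma adjusted p = 0.827; exact permutation p = 0.6). Without fl/fl replicate 3 the CS-Mpc2-/- mean was 99.1% of the fl/fl mean (log2 -0.06, limma adjusted p = 0.919). With replicate 3 of both groups left out the difference turned positive, at 0.10 (limma adjusted p = 0.834).

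Myh7b, a chain of low abundance, had the largest fold difference of the 3. It was at 140, 90.8 and 91.8 ppm in CS-Mpc2-/-, against 320, 243 and 114 ppm in fl/fl. CS-Mpc2-/- replicates 2 and 3 lay below every fl/fl library, and CS-Mpc2-/- replicate 1 lay above fl/fl replicate 3. The mean was 108 ± 28.2 ppm in CS-Mpc2-/- and 226 ± 104 ppm in fl/fl (SD, n = 3 each), so CS-Mpc2-/- stood at 47.7% of fl/fl. The log2 difference was -0.97 ± 0.32 (SE) and did not pass over all genes (limma adjusted p = 0.264, exact permutation p = 0.2). Without fl/fl replicate 3, Myh7b was 1 of 531 genes that fell (4.4% of the 12072 tested), by 1.40 ± 0.21 on the log2 scale (SE, limma adjusted p = 0.0011). Of the 3 chains, Myh7b passed in that fit and Myh6 and Myh7 did not. It was also among the lower genes with replicate 3 of both groups left out (log2 -1.30, limma adjusted p = 0.00109, 5.3% of genes). With libraries weighted by their own spread (array weights), Myh7b was just under the threshold (limma adjusted p = 0.0479, 1.84% of genes lower). Those weights were estimated from these same values, so that fit too is descriptive and no independent support. With only CS-Mpc2-/- replicate 3 left out, whose Mpc2 level went against its label, Myh7b did not pass (log2 -0.87, limma adjusted p = 0.369). In that fit 0 genes fell.

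**Figure D2:**
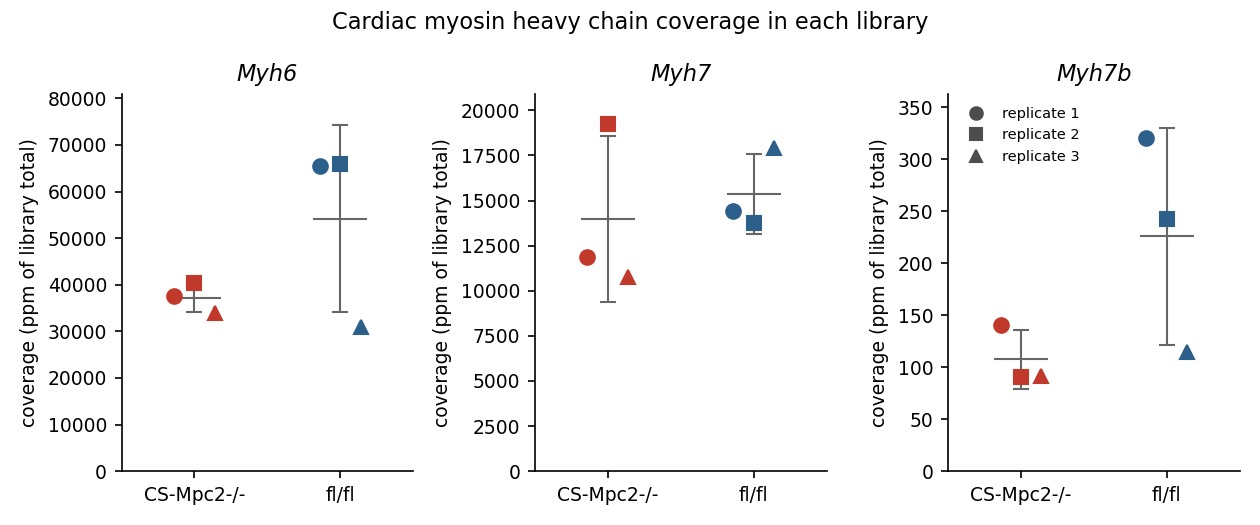
Coverage in ppm of the library total, on linear axes from 0, of Myh6, Myh7 and Myh7b in each library, CS-Mpc2-/- left of fl/fl in each panel, with points for libraries (marker shape gives the replicate) and lines for the mean ± SD (n = 3). For Myh6 and Myh7b, fl/fl replicates 1 and 2 lie above all CS-Mpc2-/- libraries and fl/fl replicate 3 does not, and for Myh7 the groups overlap.

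Per nucleotide of transcript the order was Myh6, Myh7, Myh7b in all 6 libraries. Myh6 averaged 6095 ± 523 ppm per kb in CS-Mpc2-/- and 8855 ± 3281 ppm per kb in fl/fl. Myh7 averaged 2239 ± 738 ppm per kb in CS-Mpc2-/- and 2464 ± 358 ppm per kb in fl/fl. Myh7b averaged 17.5 ± 4.58 ppm per kb in CS-Mpc2-/- and 36.6 ± 16.9 ppm per kb in fl/fl (SD, n = 3 each). Neighbours in this order did not overlap in either genotype: the lowest Myh6 level per kb was 5551 in CS-Mpc2-/- and 5067 in fl/fl, and the highest Myh7 level per kb was 3086 in CS-Mpc2-/- and 2873 in fl/fl. Among all genes ranked by ppm, Myh6 was the 2nd in every library, behind the giant sarcomere spring gene Ttn. Myh7 ranked 5, 3 and 7 in CS-Mpc2-/- and 4, 5 and 3 in fl/fl. Myh7b ranked 1084, 1700 and 1694 in CS-Mpc2-/- and 354, 515 and 1344 in fl/fl.

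Together the 3 chains took 4.95%, 5.96% and 4.48% of the library total in CS-Mpc2-/-, against 8.02%, 8.0% and 4.90% in fl/fl. The mean sum was 5.13% ± 0.758 in CS-Mpc2-/- and 6.97% ± 1.79 in fl/fl (SD, n = 3 each; exact permutation p = 0.3). Ttn itself was at 70670, 72847 and 85216 ppm in CS-Mpc2-/- and at 76116, 81765 and 81533 ppm in fl/fl. Set against Ttn, the Myh6 level was 0.531, 0.553 and 0.398 in CS-Mpc2-/- and 0.859, 0.807 and 0.380 in fl/fl. On this scale too, fl/fl replicates 1 and 2 were highest and fl/fl replicate 3 was lowest.

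The balance of the chains was described by the Myh7 to Myh6 ratio, the classical measure of a shift towards the fetal motor. The ratio of ppm was 0.316, 0.477 and 0.318 in CS-Mpc2-/-, against 0.221, 0.208 and 0.578 in fl/fl. All CS-Mpc2-/- libraries lay above fl/fl replicates 1 and 2 and below fl/fl replicate 3. The mean ratio was 0.370 ± 0.0924 in CS-Mpc2-/- and 0.335 ± 0.210 in fl/fl (SD, n = 3 each), a mean log2 difference of 0.28 (exact permutation p = 0.6, two-sided). Without fl/fl replicate 3 the log2 difference was 0.76, with an exact permutation p of 0.2, the smallest that 3 against 2 allows. Per nucleotide of transcript the ratio was 0.310, 0.468 and 0.312 in CS-Mpc2-/- and 0.216, 0.204 and 0.567 in fl/fl.

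As shares of the 3 chains, Myh6 made up 75.8%, 67.6% and 75.7% in CS-Mpc2-/- and 81.6%, 82.5% and 63.2% in fl/fl. Myh7 made up 23.9%, 32.2% and 24.1% in CS-Mpc2-/- and 18%, 17.2% and 36.5% in fl/fl. The libraries with the largest Myh7 share were thus fl/fl replicate 3 and CS-Mpc2-/- replicate 2, one of each genotype. These were also the libraries with the highest Myh7 level. In CS-Mpc2-/- replicates 1 and 3 the Myh7 share lay above that of fl/fl replicates 1 and 2 although the Myh7 level lay below theirs, since Myh6 was lower. Myh7b made up 0.283%, 0.152% and 0.205% in CS-Mpc2-/- and 0.399%, 0.304% and 0.233% in fl/fl. Its mean share was 0.213% ± 0.0659 in CS-Mpc2-/- and 0.312% ± 0.0833 in fl/fl (SD, n = 3 each; exact permutation p = 0.2).

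**Figure D3:**
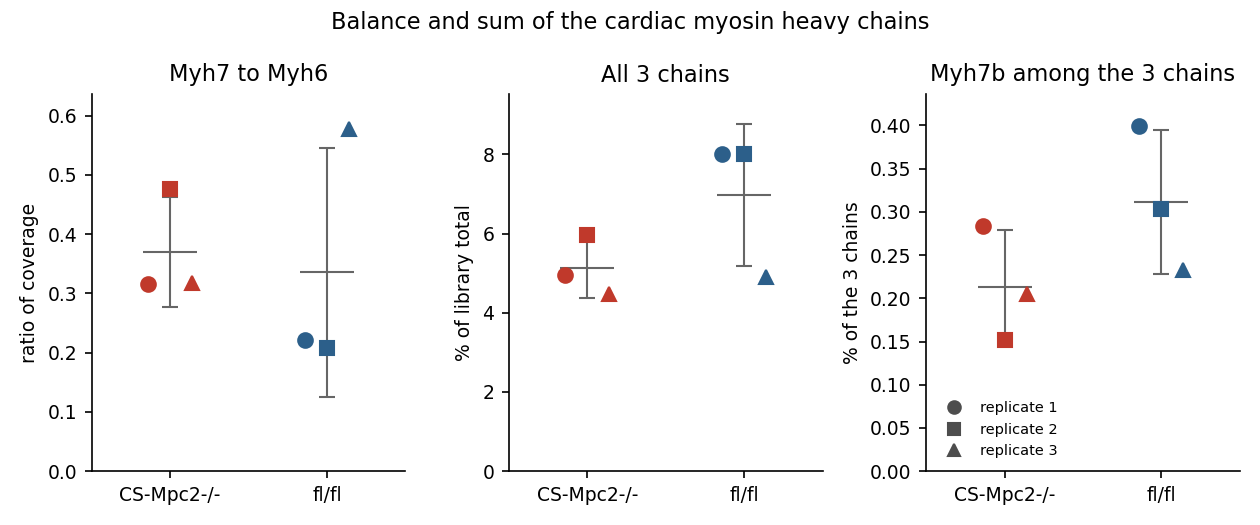
Myh7 to Myh6 ratio of coverage, the sum of the 3 chains in percent of the library total and the Myh7b share in percent of the 3 chains, CS-Mpc2-/- left of fl/fl, with points for libraries (marker shape gives the replicate) and lines for the mean ± SD (n = 3). The CS-Mpc2-/- ratios of 0.316 to 0.477 lie between those of fl/fl replicates 1 and 2 (0.221 and 0.208) and that of fl/fl replicate 3 (0.578).

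The authors' deposited table gives ratios of CS-Mpc2-/- over fl/fl group means of 0.688 for Myh6, 0.909 for Myh7 and 0.477 for Myh7b. Its unadjusted p-values, from a test of the linear values in the authors' deposited table, are 0.223 for Myh6, 0.659 for Myh7 and 0.130 for Myh7b.

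The RNAs that share a locus with the chains were measured for 3 of 4 genes: Mhrt, Mir208a and Mir499 (Mir208b was not analysed here). Mhrt is a long noncoding RNA that in mouse binds the chromatin remodeller Brg1. Its transcript of 828 nt runs on the plus strand of chr14 from 54968678 to 54974349, and 463 nt of it (55.9%) lie in exons of Myh7, where without strand information its reads and those of Myh7 cannot be told apart. It was at 38.3, 30.4 and 28.6 ppm in CS-Mpc2-/-, against 106, 88.9 and 33.7 ppm in fl/fl. CS-Mpc2-/- replicates 2 and 3 lay below every fl/fl library and CS-Mpc2-/- replicate 1 lay just above fl/fl replicate 3, the pattern of Myh7b. The log2 difference was -1.06 ± 0.34 (SE, limma adjusted p = 0.262). Without fl/fl replicate 3 Mhrt fell by 1.56 ± 0.21 (SE, limma adjusted p = 0.000355).

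Relative to its neighbours, Mhrt was at 1.02, 0.754 and 0.843 ppm per 1000 ppm of Myh6 in CS-Mpc2-/-, against 1.62, 1.35 and 1.09 in fl/fl. On this scale all CS-Mpc2-/- libraries lay below all fl/fl libraries, but no share over all genes was computed per ppm of Myh6. In ppm of the library total, where 6.48% of genes had all CS-Mpc2-/- libraries below all fl/fl libraries, the groups overlapped for Mhrt. Per 1000 ppm of Myh7, Mhrt was at 3.24, 1.58 and 2.65 ppm in CS-Mpc2-/- and at 7.33, 6.47 and 1.88 ppm in fl/fl.

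Mir208a, in the Myh6 intron, was at 12.9, 6.03 and 7.76 ppm in CS-Mpc2-/-, against 29.6, 27 and 6.24 ppm in fl/fl. As for its host gene, fl/fl replicates 1 and 2 were highest, and fl/fl replicate 3 lay between CS-Mpc2-/- replicates 2 and 3. The log2 difference was -0.95 ± 0.48 (SE, limma adjusted p = 0.412), and without fl/fl replicate 3 it fell by 1.62 ± 0.31 (SE, limma adjusted p = 0.00497). Mir499, in the Myh7b intron, was at 2.51, 2.07 and 2.45 ppm in CS-Mpc2-/- and at 3.82, 1.97 and 2.52 ppm in fl/fl, with overlapping groups (log2 -0.15 ± 0.38, limma adjusted p = 0.895). Mir499 was thus at 17.9, 22.7 and 26.6 ppm per 1000 ppm of Myh7b in CS-Mpc2-/- and at 11.9, 8.10 and 22.0 ppm in fl/fl. Coverage of such short intronic genes includes any unspliced host RNA and is no measure of the mature microRNAs printed above.

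Likeness of pattern was measured as the root mean square distance of centred log2 values over the 6 libraries, for the 8628 genes whose mean reached 10 ppm. Genes with provisional symbols (Gm or Rik) were skipped in the ranking unless they were in a gene list. Mhrt, deposited under a Rik symbol, was kept by that exception. Of the genes so ranked, Mhrt was closest to Myh7b, at 0.130 (median over all 8628 genes 0.724). The next were Mdga1 (0.151), Slc38a3 (0.177), which encodes a glutamine transporter, Mmp15 (0.184) and Nt5dc2 (0.193). Closest to Myh6 were Scaf1 (0.0885), Nfatc1 (0.0900), a calcineurin-dependent transcription factor, Clk3 (0.0991), a kinase of splicing factors, Sec22c (0.0996) and Coro6 (0.102), against a median of 0.499. Closest to Myh7 were Gnb2 (0.0981), a G protein subunit, Ptgds (0.115), Sulf2 (0.125), Leng1 (0.129) and Myom2 (0.133), an M-band protein of the sarcomere, against a median of 0.407. Between the chains the distance was 0.357 for Myh6 and Myh7b, 0.536 for Myh6 and Myh7, and 0.780 for Myh7 and Myh7b. These distances describe 6 libraries that share their scaling.

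Thyroid hormone acts on Myh6 through nuclear receptors. Of 17 receptors, transporters and cofactors of the hormone, 14 were measured, and with all 6 libraries 0 passed in either direction (median log2 -0.27, against 0.04 over all genes). Dio2, the deiodinase that makes active thyroid hormone, was at 103, 65.8 and 68.1 ppm in CS-Mpc2-/-, against 5.0, 1.47 and 42.4 ppm in fl/fl. Every CS-Mpc2-/- library lay above every fl/fl library, as for 8.01% of all genes (log2 3.18 ± 0.74 SE, limma adjusted p = 0.220). Without fl/fl replicate 3, Dio2 was the 1 member that rose, by 4.35 (limma adjusted p = 2.18e-06; 6.51% of all genes rose in that fit), and 0 fell. The receptor gene Thrb was at 24.5, 30.3 and 38.8 ppm in CS-Mpc2-/- and at 55.0, 44.5 and 35.1 ppm in fl/fl. Its partner gene Rxra was at 110, 99.0 and 93.4 ppm in CS-Mpc2-/- and at 150, 138 and 111 ppm in fl/fl.

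Of 12 heart genes that respond to thyroid hormone, all 12 were measured and had negative log2 differences (median -0.64, against 0.04 over all genes). The share of all genes with a negative difference was not computed. The list does not separate genes that the hormone raises from genes that it lowers. The common sign therefore gives no direction of hormone action, which was not tested. With all 6 libraries 0 passed, and without fl/fl replicate 3, 5 of 12 fell and 0 rose, where 4.4% of all genes fell and 6.51% rose. Ucp3, a mitochondrial carrier, was at 5.80, 5.20 and 23.1 ppm in CS-Mpc2-/-, against 64.3, 114 and 32.8 ppm in fl/fl (log2 -2.66 ± 0.50 SE, limma adjusted p = 0.220). Atp2a2, the calcium pump of the sarcoplasmic reticulum, was at 2785, 2225 and 4086 ppm in CS-Mpc2-/-, against 6112, 6514 and 3659 ppm in fl/fl, and without fl/fl replicate 3 it fell by 1.10 (limma adjusted p = 0.0105). Kcnd2, a potassium channel subunit, was at 20.1, 7.75 and 20.1 ppm in CS-Mpc2-/- and at 31.7, 45.5 and 22.0 ppm in fl/fl.

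Of 21 activators of myosin heavy chain transcription, 19 were measured; 0 passed with all 6 libraries (median log2 -0.27). With fl/fl replicate 3 left out, 1 of 19 rose, a share near the 6.51% of all genes, and 3 fell, against 4.4% of all genes. The one that rose was Gata4, a zinc finger factor of cardiac genes, at 258, 246 and 198 ppm in CS-Mpc2-/- and 147, 148 and 226 ppm in fl/fl (log2 0.66 without fl/fl replicate 3, limma adjusted p = 0.0273). The T-box factor gene Tbx5 was at 8.15, 15.0 and 12.3 ppm in CS-Mpc2-/- and at 31.6, 20.7 and 14.7 ppm in fl/fl, and Mef2d, a MADS-box factor gene, was at 109, 112 and 79.4 ppm in CS-Mpc2-/- and at 177, 160 and 99.3 ppm in fl/fl. Both fell without fl/fl replicate 3 (limma adjusted p = 0.0335 for Tbx5 and 0.0218 for Mef2d). Of 11 repressors, 10 were measured, with 0 passing (median log2 -0.22), and without fl/fl replicate 3, 0 rose and 1 of 10 fell, against 4.4% of all genes. The 1 gene was Sox6, a repressor of slow myosin genes, at 19.3, 20.1 and 28.4 ppm in CS-Mpc2-/- and 35.5, 46.4 and 27.2 ppm in fl/fl (limma adjusted p = 0.0415 without fl/fl replicate 3). Parp1 was at 81.0, 69.8 and 62.6 ppm in CS-Mpc2-/- and 105, 102 and 76.1 ppm in fl/fl, and Ybx1 at 74.1, 74.7 and 81.4 ppm in CS-Mpc2-/- and 96.2, 120 and 84.7 ppm in fl/fl.

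Myh7 is often grouped with the fetal genes, of which 9 of 10 were measured here. With all 6 libraries 0 passed (median log2 1.61, 6 positive and 3 negative). Without fl/fl replicate 3, 6 of 9 rose, against 6.51% of all genes, and 0 fell. Acta1, skeletal alpha-actin, was at 130, 141 and 124 ppm in CS-Mpc2-/-, against 45.1, 25.0 and 68.2 ppm in fl/fl (log2 1.94 without fl/fl replicate 3, limma adjusted p = 0.000118). Rcan1, a calcineurin regulator and target, was at 454, 338 and 326 ppm in CS-Mpc2-/- and at 81.6, 73.1 and 257 ppm in fl/fl. Ankrd1, a stretch-responsive sarcomere protein gene, was at 2957, 3426 and 2402 ppm in CS-Mpc2-/- and at 359, 293 and 2152 ppm in fl/fl. Nppa was at 7834, 10961 and 6696 ppm in CS-Mpc2-/-, against 197, 175 and 7656 ppm in fl/fl (a gene named after its values were seen). The CS-Mpc2-/- mean over that of all 3 fl/fl libraries was 318% for Nppa, 286% for Acta1 and 90.9% for Myh7. For the 3 negative members of the list it was 98.5% (Acta2), 97.0% (Tpm2) and 83.1% (Tnnt1), on both sides of Myh7. Against fl/fl replicates 1 and 2 alone it was 4577% for Nppa, whose level in fl/fl replicate 3 had set that library apart, 376% for Acta1 and 99.1% for Myh7.

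The partners of the chains in the thick filament were measured for 12 of 17 genes, with 0 passing (median log2 0.06). In the fit without fl/fl replicate 3, 1 of 12 rose, a share near the 6.51% of all genes, and 0 fell. The 1 gene was Myom3, an M-band protein gene of low level, at 11.8, 13.0 and 5.12 ppm in CS-Mpc2-/- and 1.32, 2.44 and 7.36 ppm in fl/fl (limma adjusted p = 0.0127 without fl/fl replicate 3). Of the ventricular light chains, Myl3 was at 2186, 2204 and 2231 ppm in CS-Mpc2-/-, above all fl/fl libraries at 1490, 1587 and 1859 ppm (log2 0.43 ± 0.18 SE, limma adjusted p = 0.339). Such a separation held for 8.01% of all genes and, among the 12 partners, for 1, a share near that. Myl2 was at 1506, 1688 and 2908 ppm in CS-Mpc2-/- and at 3020, 3204 and 2481 ppm in fl/fl (log2 -0.57 ± 0.25 SE, limma adjusted p = 0.363).

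All 14 genes of myosin folding and turnover were measured, with 0 passing (median log2 -0.09). In the fit without fl/fl replicate 3, 1 of 14 rose, a share near the 6.51% of all genes, and 0 fell. The 1 gene was Hsp90aa1, a chaperone that works with UNC45 on myosin heads, at 100, 74.2 and 88.7 ppm in CS-Mpc2-/- and 36.0, 35.4 and 71.5 ppm in fl/fl (limma adjusted p = 0.00119 without fl/fl replicate 3). The cytosolic chaperone gene Hspa8 was at 777, 593 and 721 ppm in CS-Mpc2-/- and at 564, 494 and 599 ppm in fl/fl. The ubiquitin ligase gene Ube4b was at 42.0, 50.3 and 44.4 ppm in CS-Mpc2-/- and at 59.3, 66.1 and 52.1 ppm in fl/fl.

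**Figure D4:**
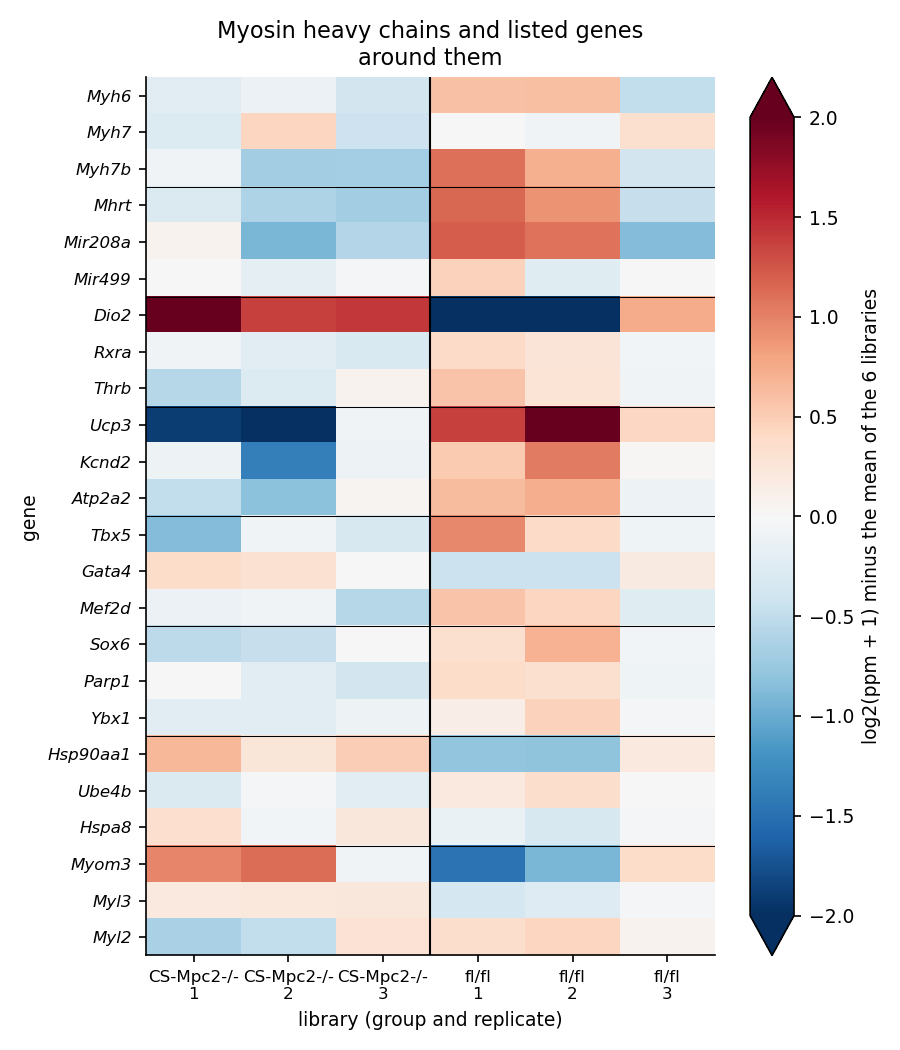
Heat map of log2(ppm + 1) minus the gene's mean over the 6 libraries, CS-Mpc2-/- columns left of fl/fl columns, for the 3 chains, the RNAs of their loci and the listed genes of thyroid hormone action, transcription, folding and the thick filament (colours end at 2 and -2). Myh6, Myh7b, Mhrt and Mir208a are highest in fl/fl replicates 1 and 2, Dio2 is lowest there, and fl/fl replicate 3 is nearer to the CS-Mpc2-/- columns in these genes.

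Other myosin heavy chains were measured for 10 of 11 genes, with 0 passing (median log2 -0.35), and without fl/fl replicate 3, 0 rose and 5 of 10 fell, against 4.4% of all genes. The 5 were the skeletal chain genes Myh1, Myh3, Myh4, Myh8 and Myh13. Myh4, the fast IIb chain, was at 27.1, 34.9 and 17.6 ppm in CS-Mpc2-/-, against 83.7, 52.1 and 11.7 ppm in fl/fl (log2 -0.54 ± 0.53 SE, limma adjusted p = 0.673, and a fall of 1.34 without fl/fl replicate 3, adjusted p = 0.00901). The 6 skeletal chains summed to 97.4, 117.3 and 61.2 ppm in CS-Mpc2-/- and to 264, 189 and 42.6 ppm in fl/fl. Per 1000 ppm of Myh6 the sum was 2.60, 2.91 and 1.80 ppm in CS-Mpc2-/- and 4.04, 2.87 and 1.38 ppm in fl/fl, with overlapping groups. Of the 50-nt windows in the transcript of a skeletal chain, at most 0.166% occurred in the Myh6 transcript (for Myh1, with a longest identical run of 59 nt). Whether reads of the abundant cardiac chains entered the skeletal values was not tested.

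Of the skeletal fibre genes measured, the 3 with the smallest p were at low levels. Atp2a1, the fast fibre calcium pump, was at 0.282, 0.345 and 0.857 ppm in CS-Mpc2-/- and at 4.03, 3.62 and 0.550 ppm in fl/fl. Tnnt1, the slow fibre troponin T, was at 9.89, 6.68 and 6.65 ppm in CS-Mpc2-/- and at 10.4, 8.75 and 8.79 ppm in fl/fl. Casq1, the skeletal calsequestrin, was at 2.17, 0.904 and 3.04 ppm in CS-Mpc2-/- and at 4.81, 5.72 and 4.08 ppm in fl/fl. The other measured genes of the list had higher means in CS-Mpc2-/- and fl/fl. These were 13.5 and 12.6 ppm for Myl1, 27.1 and 31.0 ppm for Mybpc2, and 42.8 and 42.6 ppm for Tpm3. Of 14 skeletal fibre genes 6 were measured, 0 passed (median log2 -0.25), and without fl/fl replicate 3, 0 rose and 1 fell (Atp2a1), against 4.4% of all genes. Atp2a1 was in the sheet of expressed genes only through its fl/fl mean of 2.73 ppm (CS-Mpc2-/- mean 0.495 ppm). The same held for Casq1 (4.87 ppm in fl/fl and 2.04 ppm in CS-Mpc2-/-). Such a listing favours a fall, so no conclusion is drawn from the call of Atp2a1. Among nonmuscle and smooth muscle chains, Myh10 was at 163, 157 and 121 ppm in CS-Mpc2-/- and at 125, 96.3 and 122 ppm in fl/fl (log2 0.36 ± 0.18 SE, limma adjusted p = 0.423). Myh9 was at 979, 705 and 548 ppm in CS-Mpc2-/- and at 690, 607 and 707 ppm in fl/fl. Myh11, the smooth muscle chain, was at 104, 103 and 93.5 ppm in CS-Mpc2-/- and at 105, 135 and 101.2 ppm in fl/fl.

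**Figure D5:**
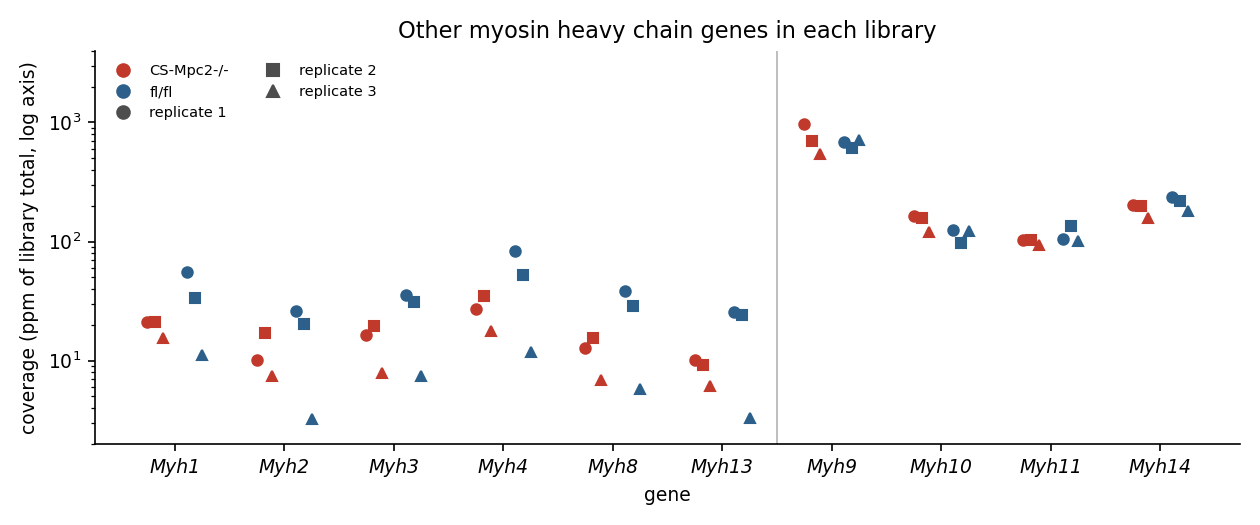
Coverage in ppm of the library total, on a log axis, of the 10 other myosin heavy chain genes in each library, CS-Mpc2-/- points left of fl/fl points for each gene, with marker shape for the replicate. The 6 skeletal chains are highest in fl/fl replicates 1 and 2 and lowest in fl/fl replicate 3, and the 4 nonmuscle and smooth muscle chains overlap between the genotypes.

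Markers of the cells in the tissue were measured beside the chains. All 11 ventricular cardiomyocyte markers, a list without the heavy chains, were present and summed to 48490 to 56651 ppm in CS-Mpc2-/- and 54118 to 71175 ppm in fl/fl. With all 6 libraries 0 passed (median log2 -0.20, 3 positive and 8 negative). Without fl/fl replicate 3, 0 rose and 2 of 11 fell, against 4.4% of all genes. The genes that fell were Ryr2, the calcium release channel (3150, 3822 and 4431 ppm in CS-Mpc2-/-, 6337, 6677 and 4642 ppm in fl/fl), and Actc1, cardiac actin (2417, 2753 and 2299 ppm in CS-Mpc2-/-, 4743, 4101 and 2509 ppm in fl/fl). The 3 positive markers were Myl3, Mybpc3 and Actn2 (log2 0.43, 0.37 and 0.07, limma adjusted p = 0.339, 0.596 and 0.893). The 4 measured of 9 atrial markers summed to 49.6 to 76.7 ppm in CS-Mpc2-/- and 44.6 to 56.8 ppm in fl/fl (median log2 0.14, 0 passing). Without fl/fl replicate 3, 1 was higher and 1 lower, where 6.51% of all genes were higher and 4.4% lower. Among them, Dkk3 was at 37.0, 49.1 and 20.9 ppm in CS-Mpc2-/- and 4.14, 11.6 and 24.6 ppm in fl/fl, and Stard10 was at 8.66, 7.42 and 9.84 ppm in CS-Mpc2-/- and 20.7, 21.8 and 12.7 ppm in fl/fl. Nr2f1 was below 5 ppm in every library.

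The 8 fibroblast markers summed to 1487 to 2634 ppm in CS-Mpc2-/- and 630 to 1389 ppm in fl/fl, where the highest fl/fl library was replicate 3. With all 6 libraries 0 passed (median log2 0.89, 7 positive and 1 negative), and 5 of 8 rose without that library, against 6.51% of all genes. Postn, which encodes the matrix protein periostin, stood at 834, 744 and 465 ppm in CS-Mpc2-/- and 39.4, 53.9 and 502 ppm in fl/fl. The collagen gene Col1a1 was at 304, 85.8 and 86.8 ppm in CS-Mpc2-/- and 37.5, 23.9 and 55.6 ppm in fl/fl, and Col1a2 was at 747, 318 and 272 ppm in CS-Mpc2-/- and 135, 115 and 241 ppm in fl/fl. Dpt, which encodes the matrix protein dermatopontin, had the opposite sign, at 77.3, 44.4 and 75.4 ppm in CS-Mpc2-/- and 97.9, 81.5 and 68.2 ppm in fl/fl (log2 -0.35 ± 0.23 SE, limma adjusted p = 0.522). The 6 measured of 7 macrophage markers summed to 380 to 531 ppm in CS-Mpc2-/- and 276 to 375 ppm in fl/fl (median log2 0.50, 0 passing). Of these, the complement genes C1qa (51.1, 47.6 and 40.4 ppm in CS-Mpc2-/-, 17.8, 26.2 and 39.1 ppm in fl/fl) and C1qb rose without fl/fl replicate 3, against 6.51% of all genes. Adgre1, the F4/80 antigen gene, was at 29.4, 22.0 and 21.2 ppm in CS-Mpc2-/- and 14.6, 12.6 and 17.8 ppm in fl/fl.

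The 6 smooth muscle markers summed to 294 to 380 ppm in CS-Mpc2-/- and 319 to 419 ppm in fl/fl (median log2 -0.11, 0 passing). Without fl/fl replicate 3, 1 was higher and 1 lower, where 6.51% of all genes were higher and 4.4% lower. Tagln was at 36.5, 35.6 and 25.9 ppm in CS-Mpc2-/- and 17.2, 17.2 and 23.1 ppm in fl/fl, and Smtn at 140, 126 and 97.8 ppm in CS-Mpc2-/- and 204, 180 and 124 ppm in fl/fl. The 6 endothelial markers summed to 1388 to 1537 ppm in CS-Mpc2-/- and 1299 to 1477 ppm in fl/fl (median log2 -0.03, 0 passing). Without fl/fl replicate 3, 1 of these was higher and 0 lower, against the same 6.51% and 4.4% of all genes. Among them, Fabp4 was at 264, 300 and 372 ppm in CS-Mpc2-/- and 170, 227 and 314 ppm in fl/fl, Pecam1 averaged 310 ± 23.2 ppm in CS-Mpc2-/- and 257 ± 35.6 ppm in fl/fl, and Cdh5 averaged 320 ± 42.9 ppm in CS-Mpc2-/- and 351 ± 22.1 ppm in fl/fl (SD, n = 3 each). Both summed levels overlapped between the genotypes. The summed fibroblast and macrophage markers were higher in the CS-Mpc2-/- libraries and fl/fl replicate 3 than in fl/fl replicates 1 and 2, where Myh6 and Myh7b were highest, though single markers such as Dpt were not. Their part in the levels of the chains was not tested.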

How the data were processed

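The deposited table holds, per gene and library, a coverage signal that the authors had brought to a common total (read from the values, not from a label). In each library 99.9917% or more of the values were integer multiples of its smallest step (tolerance 0.01). Counts of reads were not recovered, so no counting intervals are given. The submitters' processing notes give mm10 as the build; for the aligner, annotation and strand setting nothing is given in the sources used here. The authors' deposited ratio of group means and unadjusted p-value were copied. The planned test for normalized values was used: values as ppm of the library total, log2(ppm + 1), limma 3.58.1 with an intensity trend in R 4.3.3, group as the only term, two-sided, Benjamini-Hochberg over 12072 genes, threshold 0.05. No filter was added to that of the authors, whose sheet holds expressed genes. In it the larger group mean was at least 700 units of the deposited signal in every gene (read from the values). Genes called not measured were absent from that sheet, which does not show that they had no signal. Atp2a1, Casq1 and Mir499 reached this floor in fl/fl alone. Fold changes of low genes are understated. The limma step was tested on simulated data in which each gene varied independently between libraries. Such data hold no library that stands apart in many genes together, so that case was not tested. Ratios and shares had exact permutation tests of 3 against 3 (20 arrangements).

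The 3 chains and the 16 gene lists were chosen with earlier results of these data known. Named genes were the 3 members of each list with the smallest p, and the 5 genes closest to each chain, with Gm and Rik symbols outside the lists skipped. Nppa, Ttn, Dpt, Myh9, Myh3, Myh4, Myh13, Mybpc3, Actn2, Acta2, Tpm2, Myl1, Mybpc2 and Tpm3 were named after their values were seen. Mhrt was matched through its older symbol by RefSeq synonyms. Sequences were compared with Biopython 1.88. Same-numbered libraries did not deviate together (correlations 0.0745, -0.0379 and -0.0735), so the numbers were not taken as pairs.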

Additional observations from a re-analysis of the deposited data

How the results depend on the processing

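With all 6 libraries, no chain passed by limma under any of the settings of scaling, pseudocount, trend, filter or robust estimation, and Myh6 and Myh7 passed under none of the 17 settings (adjusted p of 0.0569 to 0.916 for Myh6 and 0.633 to 0.988 for Myh7). Myh7b passed with array weights (log2 difference -1.03, limma adjusted p = 0.0479), without fl/fl replicate 3 and with replicate 3 of both groups left out (-1.30). Its adjusted p spanned 0.00109 to 0.769. With each library left out in turn the log2 difference was -0.82 to -0.28 for Myh6, -0.43 to -0.01 for Myh7 and -1.40 to -0.66 for Myh7b. Myh7 turned positive, at 0.10, with replicate 3 of both groups left out. The log2 Myh7 to Myh6 ratio differed by 0.02 to 0.76, the Myh7b share by -0.138 to -0.0549 percentage points and the sum of the chains by -28754 to -13169 ppm with each library left out. Genes higher in CS-Mpc2-/- numbered 0 with all libraries, 0 to 786 with each left out, 321 with array weights and 874 with both replicates 3 left out. Genes lower numbered 0, 0 to 531, 222 and 640 under the same settings, and members of the gene lists past the threshold numbered 0, 0 to 40, 20 and 48. Mir499 spanned -0.30 to 0.046 and Nr2f1 -0.17 to 0.55 with each library left out, and each changed sign against all 6 libraries once, Mir499 without fl/fl replicate 1 and Nr2f1 without fl/fl replicate 2. With the replicate number as a block, 0 genes passed, and the log2 difference of Myh6 was -0.46 (limma adjusted p = 0.689). The cause of these changes was not tested, beyond the libraries left out.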
